A study of Mus musculus with 4 samples.

Results

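FOXL2 peaks were found at a larger share of the mitochondrial ribosomal protein genes than of all protein-coding genes, and many of these peaks lay near the start of the Mrpl or Mrps gene and, at the same time, near the start of a neighbour on the opposite strand. The 78 genes described here, called the members below, are the protein-coding genes of the RefSeq table whose symbol is Mrpl or Mrps followed by a number, of 21887 protein-coding genes on the nuclear chromosomes 1 to 19, X and Y. They comprise 49 Mrpl genes, named for the large subunit, and 29 Mrps genes, named for the small subunit, spread over 17 chromosomes. FOXL2 binding was mapped by ChIP-seq, in which chromatin bound by a protein is recovered with an antibody and sequenced. The 2 FOXL2 ChIP samples used an antibody to FOXL2 on pools of whole ovaries from CD1 mouse embryos at embryonic day 14.5, dissected free of the mesonephros, and 2 input samples used no antibody. No genotype, treatment or sorting separates the samples, so the chromatin came from all cell types of the ovary. The data were the positions of 11438 peaks of 300 bp in 1 list that serves both ChIP samples, so there is no height, no value per replicate and no test over samples. Read depth is unknown, and FOXL2 may bind more weakly at genes that have no listed peak.

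In the ovary, the forkhead factor FOXL2 is made by granulosa cells, which surround and nourish the oocytes, and by their precursors. Mitochondrial ribosomal proteins are encoded in the nucleus, made in the cytoplasm and imported into mitochondria, where they join the ribosomal RNAs of the mitochondrial genome. The mitochondrial ribosome makes the membrane subunits of the respiratory chain and of ATP synthase that the mitochondrial genome encodes. Many of its proteins have a counterpart in bacteria and others occur in mitochondria alone. The promoters of such nuclear genes for mitochondrial proteins are known for sites of ETS factors, NRF1 and YY1 and for lying back to back with another gene.

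A peak lay in the gene or within 10 kb of either end for 69 of the 78 genes, 88.5% (exact 95% binomial interval 79.2 to 94.6%). Over all protein-coding genes the share was 49.6%. The intervals treat genes as independent draws, and they do not measure the spread between pools of ovaries. A border means either end of the annotated gene. Within 1 kb of a border, a peak was found for 58 of the 78 genes (74.4%, interval 63.2 to 83.6%), against 35.3% of all protein-coding genes. An own-border peak is such a peak with no other protein-coding border nearer to its centre. It was found for 40 of the 78 genes (51.3%, interval 39.7 to 62.8%), against 31.3% of all protein-coding genes. The members were short, with a median length of 7.69 kb against 17.2 kb for all protein-coding genes. For the 19570 protein-coding genes whose length lay within the range of the members, from 0.825 to 121.712 kb, the median length was 15.3 kb, still longer than that of the members. In that set the background was 48.4% for the 10 kb window and 30.8% for own-border peaks.

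Related gene groups, chosen by symbol, are set beside these values without a test. The symbols of cytosolic ribosomal protein genes, whose products form the ribosome outside mitochondria, also take in gene copies kept as annotated. Of the 91 genes so matched, 77 had a peak in the 10 kb window (84.6%) and 60 an own-border peak (65.9%). Of the nuclear genes of the respiratory chain and ATP synthase, 62 of 88 had a peak in the window (70.5%) and 41 an own-border peak (46.6%). Within 1 kb of a border, whether or not another border was nearer, a peak was found for 63 cytosolic genes (69.2%). For the respiratory chain and ATP synthase it was 48 genes (54.5%), and the share of the members was 74.4%. Of the 3 groups, mitochondrial ribosomal protein genes had the highest share in the 10 kb window and within 1 kb of a border. Cytosolic ones had the highest share of own-border peaks. In the window, the interval of the cytosolic share (75.5 to 91.3%) holds the 88.5% of the members.

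**Figure D1:**
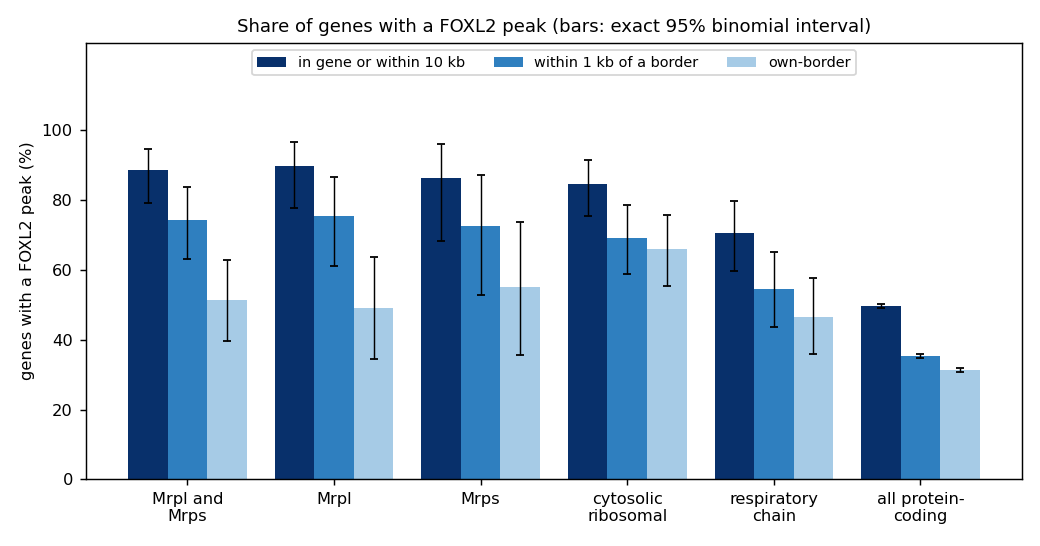
Share of genes with a FOXL2 peak in percent (y axis) for Mrpl and Mrps genes together and apart, cytosolic ribosomal protein genes, respiratory chain genes and all protein-coding genes (x axis), by 3 definitions of a peak near a gene. Error bars are exact 95% binomial intervals, and the share of own-border peaks is 51.3% for Mrpl and Mrps genes against 31.3% for all protein-coding genes.

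Large and small subunit genes were set side by side. Of the Mrpl genes, 44 of 49 had a peak in the 10 kb window (89.8%, interval 77.8 to 96.6%), and of the Mrps genes 25 of 29 (86.2%, interval 68.3 to 96.1%). Own-border peaks were found for 24 of 49 Mrpl genes (49.0%, interval 34.4 to 63.7%) and 16 of 29 Mrps genes (55.2%, interval 35.7 to 73.6%). Peaks within 1 kb of a border, nearest or not, were found for 37 Mrpl genes (75.5%) and 21 Mrps genes (72.4%). For all 3 definitions the interval of each family holds the share of the other, and the difference was not tested. The symbols do not always name the subunit, since the products of Mrps18a and Mrps30 sit in the large subunit and that of Mrps36 belongs to the 2-oxoglutarate dehydrogenase complex. All 3 of these genes had an own-border peak, at 95, 154 and 353 bp inside the gene.

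By origin of the protein, 27 of 48 genes with a bacterial counterpart had an own-border peak (56.2%), against 12 of 29 genes of proteins found in mitochondria alone (41.4%). Within 1 kb of a border, nearest or not, the counts were 37 of 48 (77.1%) and 20 of 29 (69.0%). Both groupings were made with the peak positions known, and neither difference was tested.

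Peaks sat at gene starts. Strand and transcription start sites were taken from the RefSeq promoter table, which lists 69 of the 78 members (not Mrpl4, Mrpl13, Mrpl15, Mrpl19, Mrpl38, Mrpl54, Mrps28, Mrps34 and Mrps35). Of 36 own-border peaks of these members, 34 lay at the start border of the gene (94.4%), and over all protein-coding genes with a listed start it was 98.3% of 5858. The 2 at the end border belonged to Mrpl36, with a centre 797 bp inside the gene, and Mrpl58, whose product releases stalled peptides from the ribosome, with a centre 692 bp beyond the gene. The Mrpl36 peak was 372 bp from a listed start of that gene, because Mrpl36 is 3.68 kb long and its listed start lies well inside. Counted by listed starts and not by borders, 57 of the 69 members (82.6%) had a peak within 1 kb of a start, against 38.4% of the 17492 protein-coding genes with a listed start. Within 250 bp of a start the counts were 39 members (56.5%) against 25.3% of all genes listed.

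The members' own-border peaks numbered 41, since Mrpl58 had 2. Of these, 36 had their centre inside the gene (87.8%), against 81.6% over all protein-coding genes. The median offset was 154 bp inside the border (exact interval of the median 95 to 215 bp), against 189 bp inside for all protein-coding genes. Mrpl peaks had a median of 200 bp inside and spread from 692 bp outside to 830 bp inside. Mrps peaks had a median of 139.5 bp inside and a narrower spread, from 94 bp outside to 353 bp inside. These spreads are the extremes of 25 Mrpl and 16 Mrps peaks. From the nearest listed start, the medians were 105 bp downstream for 23 Mrpl peaks and 95 bp downstream for 13 Mrps peaks. The difference was not tested. The fullest interval held 10 of the 41 peaks, from 100 to 200 bp inside the gene.

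**Figure D2:**
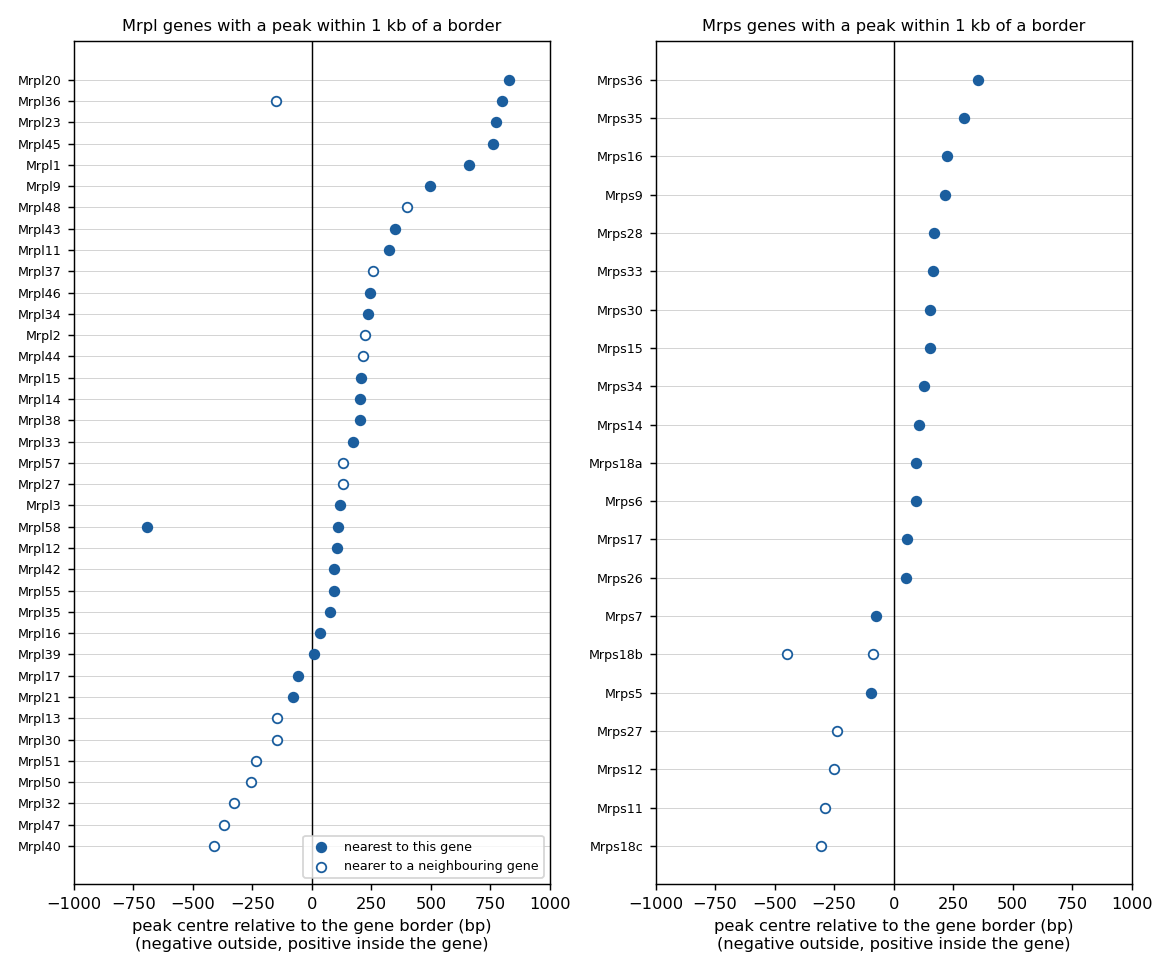
Position of each peak centre within 1 kb of a border of an Mrpl gene (left) or an Mrps gene (right), in bp from the nearer border of that gene (x axis), with 1 row per gene. Filled circles are own-border peaks and open circles are peaks nearer to a neighbouring gene. Most filled circles lie just inside the gene, and the open circles lie from 450 bp outside to 398 bp inside.

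Closest to its border was the peak of Mrpl39, 9 bp inside, followed by Mrpl16 (34 bp inside), Mrps26 (53 bp inside), Mrps17 (56 bp inside) and Mrpl17 (58 bp outside). Mrpl16 is part of the core of the large subunit near the site of peptide bond formation. Peaks farthest from the border but still its own were those of Mrpl20 (830 bp inside), Mrpl36 (797 bp inside), Mrpl23 (774 bp inside), Mrpl45 (761 bp inside) and Mrpl58 (692 bp outside its end). Mrpl23 and Mrpl45 lie around the exit of the peptide tunnel, and Mrpl45 anchors the ribosome to the inner membrane. For several of these the gene border was not the nearest listed start. The Mrpl45 peak lay 32 bp upstream of a listed start, the Mrpl1 peak (659 bp inside the border) 42 bp downstream of a start, and the Mrpl23 peak 209 bp downstream of a start. Mrpl20 has its start at the border, so its peak remained 830 bp downstream. Over the 36 own-border peaks of members with a listed start, the median lay 100 bp downstream of the nearest start (interval 78 to 170 bp), against 129 bp for all genes listed.

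The own-border peaks outside their gene numbered 5. These were Mrpl17 (58 bp), Mrps7 (73 bp), Mrpl21 (80 bp), Mrps5 (94 bp) and the end peak of Mrpl58. The first 4 lay upstream of the gene start, and for Mrps7, Mrpl21 and Mrps5 another gene border lay within 1 kb of the same peak.

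**Figure D3:**
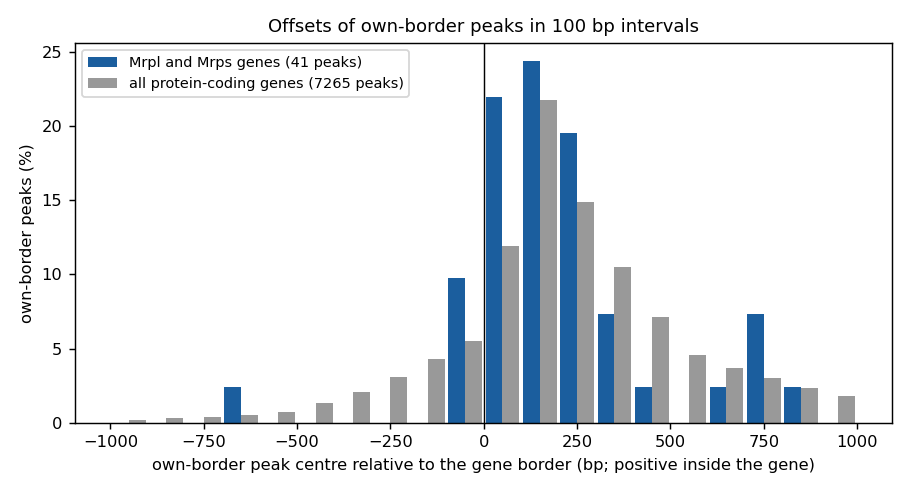
Percent of own-border peaks (y axis) in 100 bp intervals of the distance from the gene border (x axis, positive inside the gene) for the Mrpl and Mrps genes (41 peaks) and for all protein-coding genes (7265 gene and peak pairs). In both, the fullest interval is 100 to 200 bp inside the gene, with 24.4% and 21.8%.

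Peaks counted as deeper inside a member, over 1 kb from every border, were in most cases close to another start of the same gene. They numbered 7. Mrps31 had a peak 1019 bp inside its border, just beyond the 1 kb limit, and 128 bp downstream of a listed start. In Mrpl22, which lines the peptide tunnel, a peak lay 1743 bp inside the border and 122 bp downstream of a listed start. The peak of Mrps2 lay 2407 bp inside the gene and 292 bp downstream of a start. Mrpl48, a protein of the central protuberance, had a peak 25319 bp inside and 148 bp downstream of a start. The peak of Mrps23 was 7674 bp from the end of the gene and 555 bp upstream of a listed start. Start sites of Mrpl4 and Mrps28 were not used here. Their peaks lay 1543 bp and 60591 bp from a border, and Mrps28 also had an own-border peak 170 bp inside.

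Promoters are shown for the members whose peak centre lay inside the promoter window and nearest to the listed start, and for the first members, in order of symbol, without an own-border peak, to show both kinds of start. Each sequence runs 5′ to 3′ on the strand of the gene, from 250 bases before the start to 50 bases from it on, from RefSeq on build GRCm38.p6, the assembly that mm10 denotes. Capitals mark exact matches, on either strand, of the forkhead letters TGTTTA, the ETS letters CCGGAAG, the NRF1 letters GCGCATGCG, the YY1 letters AAGATGGC and the CCAAT box. Peak centres lay inside the window in Mrpl39 (chr16:84735195-84735494, minus strand, 9 bp from the start), Mrps17 (chr5:129715247-129715546, plus strand, 9 bp), Mrpl45 (chr11:97315466-97315765, plus strand, 32 bp), Mrpl16 (chr19:11770165-11770464, plus strand, 34 bp), Mrpl1 (chr5:96209865-96210164, plus strand, 42 bp) and Mrpl17 (chr7:105811038-105811337, minus strand, 58 bp).
Mrpl39: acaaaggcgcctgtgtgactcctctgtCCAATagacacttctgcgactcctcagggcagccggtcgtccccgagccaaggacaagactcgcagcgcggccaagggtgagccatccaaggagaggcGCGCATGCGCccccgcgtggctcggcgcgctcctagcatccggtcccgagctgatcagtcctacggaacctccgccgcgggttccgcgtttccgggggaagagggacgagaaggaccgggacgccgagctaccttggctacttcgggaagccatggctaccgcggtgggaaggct
Mrps17: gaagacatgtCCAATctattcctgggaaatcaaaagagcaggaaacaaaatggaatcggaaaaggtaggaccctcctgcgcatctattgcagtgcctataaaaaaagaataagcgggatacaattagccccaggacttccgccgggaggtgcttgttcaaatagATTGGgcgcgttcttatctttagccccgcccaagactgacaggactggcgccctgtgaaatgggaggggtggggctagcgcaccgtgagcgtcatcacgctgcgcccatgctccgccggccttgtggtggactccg
Mrpl45: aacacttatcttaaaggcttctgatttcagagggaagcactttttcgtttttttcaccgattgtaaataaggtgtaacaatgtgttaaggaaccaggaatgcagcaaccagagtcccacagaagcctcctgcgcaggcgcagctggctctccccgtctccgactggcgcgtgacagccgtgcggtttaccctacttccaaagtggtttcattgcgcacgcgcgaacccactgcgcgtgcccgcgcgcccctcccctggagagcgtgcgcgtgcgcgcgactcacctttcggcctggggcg
Mrpl16: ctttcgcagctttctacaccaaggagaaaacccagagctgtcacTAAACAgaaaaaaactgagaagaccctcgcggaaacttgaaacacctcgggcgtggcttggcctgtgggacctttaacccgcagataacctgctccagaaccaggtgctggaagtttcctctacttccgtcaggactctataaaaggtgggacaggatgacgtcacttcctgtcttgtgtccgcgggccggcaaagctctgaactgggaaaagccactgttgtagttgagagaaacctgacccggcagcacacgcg
Mrpl1: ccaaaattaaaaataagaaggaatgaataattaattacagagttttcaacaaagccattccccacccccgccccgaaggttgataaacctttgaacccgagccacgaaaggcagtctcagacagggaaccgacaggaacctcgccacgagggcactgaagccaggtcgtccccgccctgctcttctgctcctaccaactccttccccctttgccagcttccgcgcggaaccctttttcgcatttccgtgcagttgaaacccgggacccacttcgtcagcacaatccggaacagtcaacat
Mrpl17: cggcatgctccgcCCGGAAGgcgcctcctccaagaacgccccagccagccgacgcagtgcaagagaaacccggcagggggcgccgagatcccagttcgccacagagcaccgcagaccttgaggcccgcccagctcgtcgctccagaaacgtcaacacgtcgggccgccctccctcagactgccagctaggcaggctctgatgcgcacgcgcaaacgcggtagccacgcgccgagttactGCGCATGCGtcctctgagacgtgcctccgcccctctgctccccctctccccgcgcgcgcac

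Among the members without an own-border peak, Mrpl10 (chr11:97041332-97041631, plus strand), whose product holds the stalk that recruits translation factors, had no peak in its window. Mrpl18 (chr17:12916042-12916341, minus strand), Mrpl2 (chr17:46645971-46646270, plus strand) and Mrpl22 (chr11:58171414-58171713, plus strand) had a peak nearby, at 477 bp upstream, 157 bp downstream and 122 bp downstream of a start. For Mrpl2 the distance is from a listed start other than that of the stretch shown. Capitals mark the same letters.
Mrpl10: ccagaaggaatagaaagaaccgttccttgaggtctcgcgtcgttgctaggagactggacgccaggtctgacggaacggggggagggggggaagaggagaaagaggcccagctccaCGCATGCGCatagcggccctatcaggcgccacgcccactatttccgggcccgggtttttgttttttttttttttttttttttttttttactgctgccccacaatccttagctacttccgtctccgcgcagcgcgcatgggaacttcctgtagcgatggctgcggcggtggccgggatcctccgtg
Mrpl18: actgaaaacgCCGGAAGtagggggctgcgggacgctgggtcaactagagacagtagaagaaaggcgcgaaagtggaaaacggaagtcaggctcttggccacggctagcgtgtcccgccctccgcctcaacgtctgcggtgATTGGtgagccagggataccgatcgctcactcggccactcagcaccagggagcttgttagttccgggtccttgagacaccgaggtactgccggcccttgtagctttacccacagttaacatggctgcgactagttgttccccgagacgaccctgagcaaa
Mrpl2: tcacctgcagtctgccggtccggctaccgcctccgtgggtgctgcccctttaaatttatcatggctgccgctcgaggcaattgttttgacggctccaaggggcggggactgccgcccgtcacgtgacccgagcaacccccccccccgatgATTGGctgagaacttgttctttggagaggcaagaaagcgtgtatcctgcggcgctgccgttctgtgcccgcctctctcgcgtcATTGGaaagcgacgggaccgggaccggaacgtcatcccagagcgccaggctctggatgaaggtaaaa
Mrpl22: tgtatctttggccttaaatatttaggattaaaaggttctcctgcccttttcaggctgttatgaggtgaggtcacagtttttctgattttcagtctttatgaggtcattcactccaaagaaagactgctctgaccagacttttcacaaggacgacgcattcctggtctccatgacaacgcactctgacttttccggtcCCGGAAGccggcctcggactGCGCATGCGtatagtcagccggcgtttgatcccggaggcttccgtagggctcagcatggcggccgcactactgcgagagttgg

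The forkhead letters were rare in these windows. The 7 letters TGTTTAC occurred in 2 of 69 member promoters (2.90%), near the 2.93% of the 17492 protein-coding promoters. These were Mrpl40 and Mrpl44, of the 34 members without an own-border peak, and none of the 35 with one held the letters. Both genes still had a peak near the start, 412 bp upstream for Mrpl40 and 214 bp downstream for Mrpl44. These 2 peaks were nearer to the border of a neighbour. Over all protein-coding promoters the shares were 2.84% with and 2.98% without an own-border peak. The shorter TGTTTA, which TGTTTAC contains, occurred in 4 of 69 member promoters (5.80%) and in 11.5% of all. Of the members with an own-border peak, Mrpl16 alone held the shorter letters, 206 bases before its start. CCGGAAG was found in 24 of 69 member promoters (34.8%) against 11.9% of all. It was found in 10 of 35 members with an own-border peak (28.6%), against 19.8% of all such promoters. Without an own-border peak it was found in 14 of 34 members (41.2%), against 8.25% of all such promoters. GCGCATGCG was found in 7 members (10.1% against 2.41% of all) and AAGATGGC in 12 (17.4% against 3.21% of all). The letters CCAAT occurred in 39.1% of members and 39.2% of all, and GGGCGG, the GC box, in 49.3% and 46.3%. With an own-border peak, GGGCGG occurred in 54.3% of members and 71.3% of all. Without one it occurred in 44.1% of members and 34.8% of all. Promoter GC content had a median of 59.0% in members with an own-border peak and 58.2% in those without. Over all protein-coding promoters the medians were 62.7% with and 52.7% without an own-border peak. A gene without an own-border peak can still have a peak nearer to a neighbour or deeper inside. Of the 69 members, 57 had a peak within 1 kb of a listed start (82.6%), and 35 had an own-border peak. Of all 17492 genes, 38.4% had a peak within 1 kb of a listed start, and 5531 had an own-border peak. The groups without an own-border peak are therefore not alike in members and in all genes. A match of letters is not a measured site, and the windows are promoter stretches, not the peaks. Of the 36 own-border peaks of members with a listed start, 9 had their centre inside the window (25%), so in most cases the window does not hold the peak centre.

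Borders of neighbouring genes were close to many members. Another protein-coding border lay within 1 kb of 44 of the 78 genes (56.4%), against 24.8% of all protein-coding genes. Of the 69 members with a listed strand, 27 (39.1%) were arranged head to head, with the start of a gene on the opposite strand within 1 kb of their own, against 10.3% of all genes listed. The families had 19 of 43 such Mrpl genes (44.2%) and 8 of 26 such Mrps genes (30.8%). Close neighbours were not particular to the members. Of the respiratory chain and ATP synthase genes, 50 of 88 had another border within 1 kb (56.8%). Head to head were 23 of 70 of them (32.9%). For the cytosolic ribosomal protein genes the counts were 32 of 91 (35.2%) and 10 of 70 (14.3%).

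Peaks near members were often shared between 2 borders. Within 1 kb of a member's border lay 60 peaks, and 30 of them (50%, interval 36.8 to 63.2%) were also within 1 kb of the border of another protein-coding gene, against 15% of all border peaks. With the borders of genes of all kinds counted, and not of protein-coding genes alone, the shares were 56.7% against 28.8%. By protein-coding borders, the share was 24 of 51 border peaks for respiratory chain and ATP synthase genes (47.1%). For cytosolic ribosomal protein genes it was 16 of 64 (25%). Sharing was therefore not particular to the members. Among genes with another border within 1 kb, 88.2% of the members' border peaks were shared, against 53.3% over all such protein-coding genes. Of the members' 30 shared peaks, 11 were nearer to the member and 19 nearer to the neighbour. The pairs of borders lay a median of 99 bp apart. Strand was listed for both genes in 27 cases, and in 23 of them the peak lay between or beside 2 starts on opposite strands. Inside the neighbour alone lay 15 of the 30 peaks, inside the member alone 10, inside both genes 4 and outside both 1. The median distance to the member's border was 223.5 bp and to the neighbour's 158.5 bp. Strand pairing, nearer gene and side were not counted over all shared border peaks. Whether the members differ from other genes in these traits is therefore unknown.

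**Figure D4:**
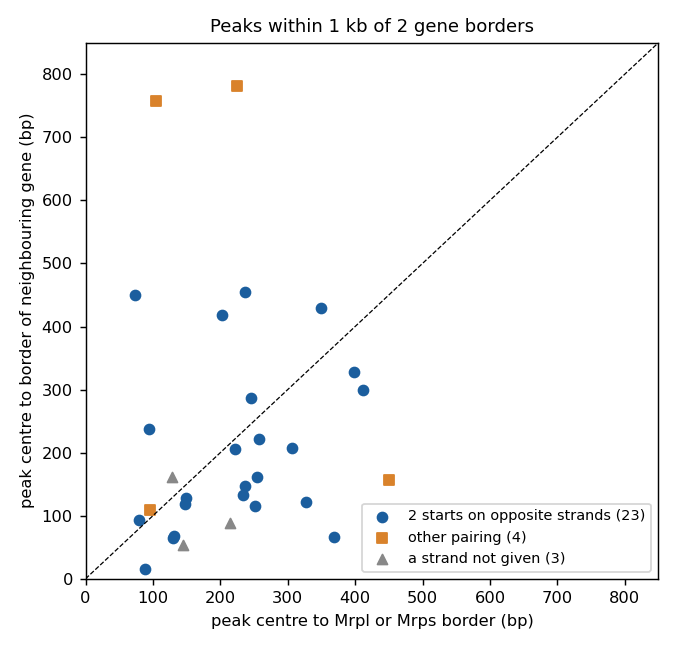
Distance in bp from the peak centre to the border of the Mrpl or Mrps gene (x axis) and to the border of the neighbouring gene (y axis) for the 30 peaks within 1 kb of both, with equal distances on the dashed line. Below the line lie 19 peaks nearer to the neighbour, and 23 peaks belong to pairs of starts on opposite strands.

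A single peak served a pair of members. It lay on chromosome 7 at 78782695 to 78782994, 245 bp inside Mrpl46 and 287 bp outside Mrps11, whose starts on opposite strands are 42 bp apart. The borders closest together were those of Mrpl21 and Ighmbp2, 13 bp apart, with a peak 80 bp outside Mrpl21 and 93 bp inside Ighmbp2. Mrps6 and the inositol transporter gene Slc5a3 have starts 14 bp apart on the same strand, with a peak 95 bp inside Mrps6 and 109 bp inside Slc5a3. Mrpl2, at the core of the large subunit, had a peak 222 bp inside and shared it with Klc4, whose border was 17 bp from its own.

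Neighbours that also serve mitochondria were among them. The peak 149 bp outside Mrpl36 lay 128 bp inside Ndufs6, a subunit gene of respiratory complex I, and the peak 369 bp outside Mrpl47 lay 67 bp inside Ndufb5, another complex I gene. Mrps12, part of the decoding centre of the small subunit, had a peak 252 bp outside, which lay 116 bp inside Sars2, the mitochondrial seryl-tRNA synthetase gene. The peak 350 bp inside Mrpl43 was also 429 bp inside Twnk, which encodes the helicase of mitochondrial DNA and in humans is linked to ovarian dysgenesis. Mrps27 had a peak 236 bp outside, 147 bp inside Ptcd2, a gene of mitochondrial RNA processing.

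Other neighbours serve different processes. Mrpl32 shared a peak with the proteasome gene Psma2 (327 bp outside Mrpl32, 122 bp inside Psma2), Mrpl57 with the kinetochore gene Ska3 (131 bp inside, 68 bp outside) and Mrpl51 with the condensin gene Ncapd2 (233 bp outside, 133 bp inside). Mrpl27 shared a peak with the DNA repair gene Eme1 (130 bp inside, 64 bp outside), Mrpl40 with the histone chaperone gene Hira (412 bp outside, 299 bp inside), and Mrpl48 with the Golgi GTPase gene Rab6a (398 bp inside, 328 bp inside). Mrps18b had a peak at each end, 88 bp outside its start and 16 bp inside Ppp1r10, and 450 bp beyond its end and 156 bp inside Atat1.

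Where no other border was near, most members had a peak of their own. Of the 34 members without another border within 1 kb, 25 had an own-border peak (73.5%, interval 55.6 to 87.1%), against 29.7% of such protein-coding genes. Of the 44 members with another border within 1 kb, 15 had an own-border peak (34.1%, interval 20.5 to 49.9%), against 36.1% of such genes. For peaks within 1 kb, nearest or not, these 44 members had 33 (75%) against 52.0%. The share of own-border peaks among members with a close neighbour was therefore near the background, and their share of border peaks of either kind was above it.

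**Figure D5:**
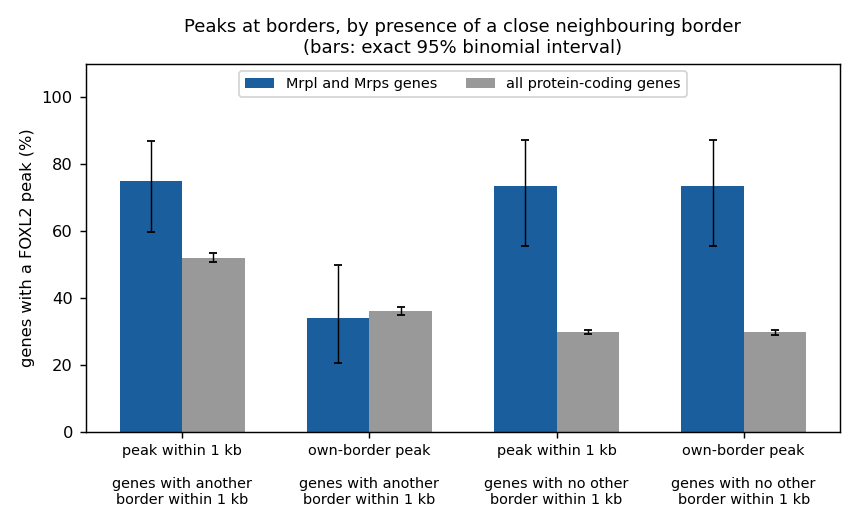
Percent of genes with a FOXL2 peak (y axis) among Mrpl and Mrps genes and all protein-coding genes, apart for genes with and without another protein-coding border within 1 kb, for peaks within 1 kb of a border and for own-border peaks (x axis). Error bars are exact 95% binomial intervals. Members without a close neighbour have an own-border peak in 73.5% of cases against 29.7% of such protein-coding genes.

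The 10 kb windows of the members held 86 peaks in all. Of these, 41 were own-border peaks of a member, 35 lay at the border of another gene, 7 lay deeper inside a member and 3 lay in the flanks over 1 kb from every border. The flank peaks were 3855 bp beyond Mrpl20, 5420 bp before Mrpl45 and 2899 bp beyond Mrps15. Of the 78 genes, 52 had 1 peak in the window, 16 had 2 and 1 had 3, and 2 or more were found for 21.8% against 14.8% of all protein-coding genes. The gene with 3 was Mrpl58, with the peaks at its start and end and another at Kctd2, 7827 bp beyond its end.

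Occupied members without an own-border peak numbered 29. For 18 of them a peak within 1 kb of their border was nearer to the neighbour. Mrpl18 had its peak 1219 bp inside and 239 bp inside Tcp1, a chaperonin gene. For 5 others the only peaks were at other genes 2680 to 9930 bp away. These were Mrpl52 (Mmp14), Mrpl49 (Syvn1 and Znhit2), Mrpl53 (Ccdc142 and Mogs), Mrps21 (Prpf3) and Mrpl28 (Pgap6). The remaining 5, Mrpl4, Mrpl22, Mrps2, Mrps23 and Mrps31, had the deeper peaks described above.

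The 9 members without a peak in the window were Mrpl10, Mrpl19, Mrpl24, Mrpl41 and Mrpl54 of the large subunit and Mrps10, Mrps22, Mrps24 and Mrps25 of the small subunit. Mrpl24, another protein of the tunnel exit, came closest to the limit, with a peak at 11.4 kb, while Mrpl28 was just inside it with a peak 9930 bp away. The nearest peak was 22.4 kb from Mrpl41, 26.3 kb from Mrpl54, 30.7 kb from Mrps25, 33.2 kb from Mrps24 and 34.1 kb from Mrpl19. Mrpl10 had its nearest peak at 44.1 kb, Mrps10 at 55.1 kb and Mrps22 at 164 kb. In humans MRPS22 has been linked to ovarian failure. Another border lay within 1 kb of 5 of these 9 genes (Mrpl10, Mrpl24, Mrpl41, Mrpl54 and Mrps22).

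By place in the large subunit, the counts are too small to compare. Of the proteins of the stalk regions, Mrpl1 (659 bp inside), Mrpl11 (324 bp inside) and Mrpl12 (105 bp inside) had an own-border peak and Mrpl10 had no peak. At the core, Mrpl3 (116 bp inside) and Mrpl16 had own-border peaks, those of Mrpl2 and Mrpl27 were nearer to a neighbour, and that of Mrpl4 lay 1543 bp inside. At the tunnel exit Mrpl23 and Mrpl45 had own-border peaks, that of Mrpl47 was nearer to a neighbour, Mrpl22 had a deeper peak and Mrpl24 had none in the window. In the central protuberance Mrpl38 (200 bp inside) and Mrpl46 had own-border peaks, and Mrpl18, Mrpl40 and Mrpl48 had peaks nearer to a neighbour.

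Other genes of the pathway were taken from lists of textbook members, with no test. The 5 mitochondrial ribosomal protein genes with other symbols all had a peak in the window, against 49.6% of all protein-coding genes. Own-border peaks were found for 4 of them, against 31.3% of all. Of these, Chchd1 (128 bp outside), Gadd45gip1 (271 bp inside), Dap3 (386 bp inside) and Aurkaip1 (403 bp inside) had an own-border peak, and the nearest peak to Ptcd3 was 3099 bp away. Of 26 assembly factor genes, 16 had a peak in the window (61.5% against 49.6% of all protein-coding genes) and 12 an own-border peak (46.2% against 31.3%). The nearest offsets were those of Rbfa (17 bp inside), Mterf3 (25 bp), Mtg1 (106 bp) and Grsf1 (113 bp). Ddx28, Fastkd2, Gtpbp10, Mpv17l2, Mrm3, Mterf4, Nsun4, Rpusd3, Rpusd4 and Tfb1m had none.

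Of 20 genes of mitochondrial translation, 16 had a peak in the window (80%, against 49.6% of all protein-coding genes). An own-border peak was found for 10 (50%, against 31.3%). Gfm1, an elongation factor gene, had a peak 5 bp inside, Guf1 19 bp outside, Trmt10c 47 bp outside and the release factor gene Mtrf1 61 bp inside. Tufm, the mitochondrial elongation factor Tu gene, had a peak 100 bp inside. Gtpbp3, Oxa1l, Trmu and Tsfm had none. Another list held 18 genes of mitochondrial DNA maintenance and transcription and of the nuclear factors that regulate them. Of these, 13 had a peak in the window (72.2% against 49.6%) and 8 an own-border peak (44.4% against 31.3%). Ppargc1a, a coactivator of mitochondrial genes, had a peak 59 bp outside, Tfb2m 78 bp inside, Polg2 118 bp inside and Pprc1 146 bp inside. The gene of NRF1, whose letters were searched above, had a peak 151 bp outside. Mterf1a, Mterf1b, Polrmt, Ssbp1 and Tefm had none.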

How the data were processed

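Per the submitters' processing notes, Bowtie 1.2, Picard 1.110, bedtools 2.24.0, HOMER 4.9 and build mm10 were used. What each tool did, the peak threshold and how replicates and inputs were combined are not stated. The authors' deposited list holds 11438 peaks as start and end positions with no score, and 11435 on chromosomes 1 to 19, X and Y were used. Each peak was placed by its centre, 150 bp from its start. Genes, borders, strands and promoters came from RefSeq tables of GRCm38.p6. Windows were 10 kb and borders 1 kb. Shares have exact 95% binomial intervals, and medians have order-statistic intervals. No test was made, since 1 list serves both ChIP samples. The gene assignment was tested on simulated peaks, placed 150 bp inside gene borders that had no other border close by. Peaks shared between neighbouring borders were not simulated, so the assignment was not checked for them. Python 3.11.15, pandas 2.3.3 and scipy 1.17.1 were used. Members and lists were chosen with earlier results of these data known. The rule for naming members took those without a peak or an own-border peak, with the most peaks, with the closest shared borders, with the extreme offsets, and with peaks outside, at the end of or deep inside the gene. In other lists it took unoccupied genes and the smallest offsets. Genes named by function or neighbour were picked after their values were seen. Alternatives changed windows, border distances, rival borders, gene lists and backgrounds.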

Additional observations from a re-analysis of the deposited data

How the results depend on the processing

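Of 41 values under alternative settings, 36 lay inside the interval of the value reported and 5 outside it. Settings that changed the background alone kept the value of the members, so those values could not move. A change of sign was possible for offsets alone, and no offset changed sign. The share of genes with a peak in the window was 97.4% for a window of 50 kb, against 67.5% of all protein-coding genes. The share of own-border peaks at the gene start was 100% for borders of 500 bp, against 99.0% over all protein-coding genes. When a border peak was counted for every gene it was near, the share with a border peak was 74.4% for all members and 75.5% for Mrpl genes, against 35.3% of all protein-coding genes. For genes with another border within 1 kb alone, the own-border share was 34.1%, below the 36.1% of such protein-coding genes. Over all members it was 51.3%, above the 31.3% of all protein-coding genes. Adding the subunit genes with other symbols gave an own-border share of 53.0%. Offsets from listed starts and the subunit by place of the protein were added after the data were examined. No paired analysis was possible because 1 list serves both ChIP samples, and for the same reason no replicate could be left out. Depth per sample is unknown, so weak and strong sites cannot be told apart.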

Other observations

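The 6 annotated pseudogenes named after these genes had no peak in the gene or within 10 kb of it. The share over all pseudogenes was not computed, so it is unknown whether this absence is unusual. The nearest peak was 12.6 kb from Mrpl23-ps1, 41.2 kb from Mrpl48-ps, 45.7 kb from Mrps36-ps2, 50.8 kb from Mrpl27-ps and 177 kb from Mrps36-ps1. For Mrps36-ps3 it was 1063 kb away. Their parent genes Mrpl23 and Mrps36 had an own-border peak, and the border peaks of Mrpl27 and Mrpl48 were nearer to a neighbouring gene.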
